A study of Mus musculus with 3 samples.

Results

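The Slit and Robo genes encode secreted axon guidance ligands and their receptors, and the 6 genes Slit1, Slit2, Slit3, Robo1, Robo2 and Robo3 were taken by symbol from the 32285 genes of the count tables. All 6 passed the filter on low counts. Levels were compared between 4 types of mouse brain nuclei, and Slit3 was also followed within the cortical type.

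Single-nucleus RNA was counted with droplets (10x Genomics) in 3 libraries, labelled biological replicates 1, 2 and 3 of a single group. The mice were of strain C57BL/6 and had no injury, and brain neurons had been marked through their axons by a label given in the lumbar spinal cord. Labelled tissue was dissected under fluorescence from sagittal slices, and nuclei were sorted by flow cytometry. The sources used here do not give the label, the age of the mice or how many animals a library holds, so p-values measure the spread between these libraries, which may be technical.

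Slit proteins are large secreted proteins that repel growing axons, above all at the midline of the nervous system, and they bind Robo1 and Robo2 on the axon surface. Robo3 is the divergent member of the receptor family: in mammals it has lost strong binding to Slit, it is needed for commissural axons to cross the midline, and it binds the secreted protein Nell2. In the developing mouse brain, Slit1 and Slit2 with Robo1 and Robo2 steer cortical and other long forebrain axons away from the midline and into their tracts.

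The introns of Slit2 and Slit3 each hold a microRNA gene on the sense strand, Mir218-1 and Mir218-2, and these sequences are shown because the 2 hosts are the ligand genes with the highest counts here. Both genes make the same 5p product, while the 3p products differ (RefSeq, GRCm38.p6, capitals mark the seed, bases 2 to 8). Mir218-1 and Mir218-2 have no row in the count tables, so the hosts' RNA was measured and the microRNAs were not. In human gastric cancer cells miR-218 is known to repress ROBO1. The 5p product lies at chr5:48223966-48223986 in Slit2 and at chr11:35616840-35616860 in Slit3, both on the plus strand.
mmu-miR-218-5p, from both hosts: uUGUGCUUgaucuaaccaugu
mmu-miR-218-1-3p, from Slit2: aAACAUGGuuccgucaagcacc
mmu-miR-218-2-3p, from Slit3: cAUGGUUCugucaagcaccgcg

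The bases before the annotated starts of Slit2 and Robo3 are shown for a ligand and a receptor whose levels differed between types below. They end at the first base before the gene (RefSeq promoters, GRCm38.p6, 5′ to 3′ on the strand of the gene), and capitals mark matches to the GC box GGGCGG or the TATA box TATAAA, searched on both strands. The Slit2 window, chr5:47982905-47983137 on the plus strand, held 3 GC boxes and 1 TATA box and was 70.4% G or C. Of all 32851 promoters at that length, 30.3% held a GC box and 11.9% a TATA box. The Robo3 window, chr9:37433247-37433425 on the minus strand, held 1 GC box and no TATA box in 179 bases, against 20.9% and 8.34% of promoters at that length. Both sets of percentages count the first 233 or 179 of the 250 bases before each promoter's start. Those windows therefore stop short of that start.
Slit2: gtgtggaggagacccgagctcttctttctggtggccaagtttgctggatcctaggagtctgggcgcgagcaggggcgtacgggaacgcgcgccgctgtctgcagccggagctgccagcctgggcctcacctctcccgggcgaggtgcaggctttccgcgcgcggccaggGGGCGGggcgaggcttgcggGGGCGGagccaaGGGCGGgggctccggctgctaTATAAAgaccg
Robo3: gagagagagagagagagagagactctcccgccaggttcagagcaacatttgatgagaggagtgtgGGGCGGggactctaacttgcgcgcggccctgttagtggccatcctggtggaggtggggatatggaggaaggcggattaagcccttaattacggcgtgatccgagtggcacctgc

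The genes differ widely in size (GRCm38, GENCODE M21), and levels are therefore compared between types and never between genes. Slit1 (ENSMUSG00000025020) lies at chr19:41600257-41743665 on the minus strand. Slit2 (ENSMUSG00000031558) and Slit3 (ENSMUSG00000056427) lie on the plus strand at chr5:47983138-48307733 and chr11:35121224-35708507. Robo1 (ENSMUSG00000022883) and Robo2 (ENSMUSG00000052516) both lie on chromosome 16, at chr16:72308306-73046095 on the plus strand and chr16:73891839-74411825 on the minus strand. Robo3 (ENSMUSG00000032128), at chr9:37415669-37433246 on the minus strand, spans 17578 bases, against 143409 to 737790 bases for the other 5. Counted genes that overlap a member add little: their UMIs came to 0.172% of those of Slit2 and 0.899% of those of Slit3, and the other 4 members had none.

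Nuclei needed 1000 detected genes or more and no more than 5% of their UMIs (unique molecular identifiers, 1 per counted RNA molecule) from mitochondria, which left 2679, 2769 and 3579 of 2710, 11094 and 3713 barcodes. Their median depth was 8270, 19493 and 14388 UMIs. Types were set in order by marker levels: cortical by Tox, red nucleus by Ttc6, Chst9 and Rreb1, hypothalamic by Sim1 or by Ros1 and Rfx2, and hindbrain by Meis1 and Meis2. This gave 918, 1415 and 1793 cortical, 127, 86 and 119 red nucleus, 53, 44 and 52 hypothalamic, and 913, 763 and 1106 hindbrain nuclei. The remaining 1638 of 9027 nuclei stayed untyped. Because the cortical gate came first, it took 1677 of 4126 nuclei, 40.6%, that also passed the hindbrain gate, and results without nuclei of more than 1 gate are given where they change. Between 1 and 3 barcodes were shared by a pair of libraries.

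Independent markers fitted the gates in part. Bcl11b, a factor of layer 5 subcerebral neurons, stood at 242, 283 and 271 CPM in cortical nuclei, against 20.8 to 39.3 CPM in hindbrain nuclei. Pou4f1, a factor of red nucleus neurons, had 8.04, 20.0 and 23.0 CPM in red nucleus nuclei and at most 1.92 CPM elsewhere. Lhx4, a factor of V2a neurons, had 23.6, 21.1 and 27.5 CPM in hindbrain nuclei. Oxt, which encodes oxytocin, had 250, 100 and 461 CPM in hypothalamic nuclei, and Avp, which encodes vasopressin, 24.3, 18.3 and 30.6 CPM. Crh, the corticotropin-releasing hormone gene of the same list, did not mark them, with 0, 6.09 and 5.11 CPM in hypothalamic nuclei, against 5.00, 10.2 and 12.8 CPM in hindbrain nuclei. Hcrt, which encodes orexin, had 973, 785 and 562 CPM there, and it also stood at an almost even level within each library in cortical (71.0, 107 and 34.4 CPM) and hindbrain nuclei (61.9, 107 and 32.6 CPM). All 4 oligodendrocyte markers were detected, and their sum was higher in cortical nuclei (68.4 to 87.0 CPM) than in the other types (16.8 to 47.2 CPM). The sum of microglia markers was 26.3 to 47.3 CPM in cortical nuclei and 46.1 to 88.2 CPM in the others. What part these RNAs have in the differences below was not tested.

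Levels below are CPM, the UMIs of a gene scaled to the same total, of the summed nuclei of a type in a library, scaled with TMM factors, for replicates 1, 2 and 3 in that order. Fold changes come from edgeR's quasi-likelihood test, which set each type against the equally weighted mean log2 level of the other 3 types, with the library as a block. A difference is named as called where the adjusted p (Benjamini-Hochberg over 17198 genes) was under 0.05 and the log2 fold change was at least 1 in size. Because logs are averaged, a fold change can differ from a ratio of mean CPM. In these sums, fewer expressing nuclei and less RNA per nucleus cannot be told apart.

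In outline, Slit3 and Robo3 were highest in cortical nuclei, Slit2 in red nucleus nuclei and Slit1 in hypothalamic nuclei. Slit2, Slit3, Robo1 and Robo3 were called lower in hypothalamic nuclei against the other types together, and Robo2 was not called in any type. Of the 24 comparisons of a member with the other types, 10 were called, 4 higher and 6 lower. The 4 comparisons of a gene use the same levels, so they are not separate results. A high level in 1 type can lower the fold changes of the others. For Slit3 and Robo3, no pair of types without cortical nuclei was called. In Slit3, red nucleus exceeded hindbrain and hypothalamic nuclei by 0.82 and 0.84, under the fold limit. In cortical nuclei 3 of 6 members were called, beside 22.3% of all genes. In hypothalamic nuclei it was 5 of 6, beside 7.78%. In red nucleus and in hindbrain nuclei 1 of 6 was called, beside 7.05% and 4.68%.

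**Figure D1:**
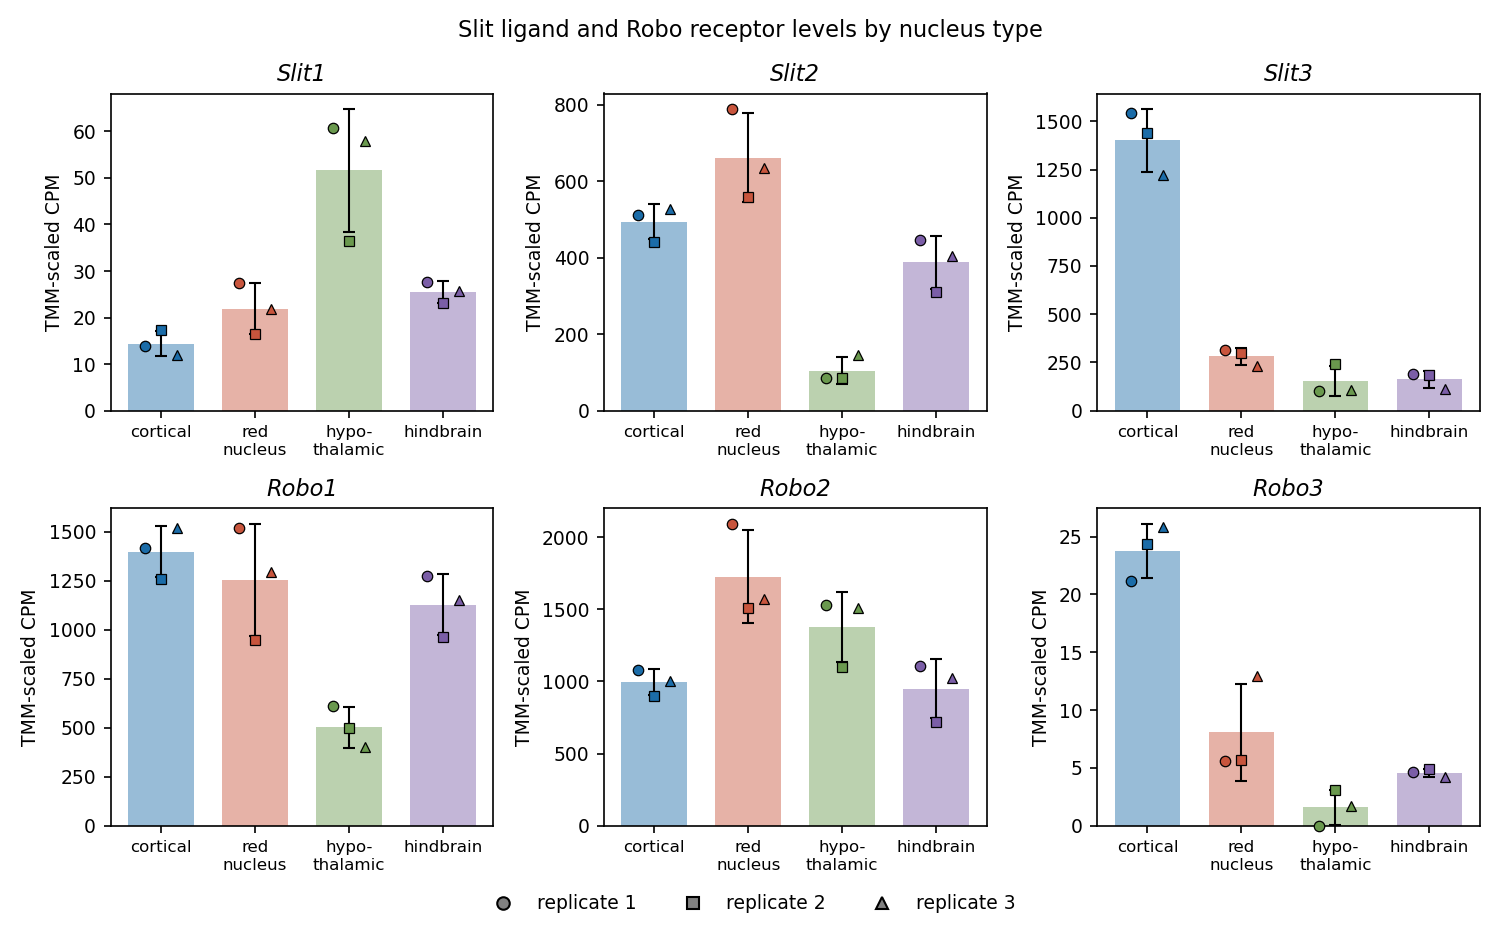
Level of each member in the 4 nucleus types, as TMM-scaled CPM (y axis, a scale of its own per gene). Bars are means, error bars SD over 3 libraries and points the libraries. Slit3 sits between 1222 and 1544 CPM in cortical nuclei and at or below 315 CPM elsewhere, and Slit2 between 84.9 and 145 CPM in hypothalamic nuclei.

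Slit1, the ligand with the lowest counts (2646 UMIs in all nuclei kept), was at 60.6, 36.5 and 57.9 CPM in hypothalamic nuclei. Hindbrain nuclei had 27.7, 23.0 and 25.8 CPM, red nucleus nuclei 27.3, 16.4 and 21.9 CPM, and cortical nuclei 13.8, 17.3 and 12.1 CPM. Every hypothalamic library lay above every library of the other types, and the hindbrain and red nucleus ranges overlapped. Against the other types Slit1 was higher in hypothalamic nuclei by a log2 fold change of 1.35 ± 0.23 (SE, adjusted p = 0.000357, 3 of 3 libraries, 4.34% of all genes called higher). It was lower in cortical nuclei by −1.05 ± 0.15 (adjusted p = 6.99e-06, 3 of 3 libraries, 13.1% of genes called lower). That second call rests on the fold limit: without replicate 1 the value was −0.89, without replicate 3 −0.88, and with no filter on low counts −0.99. Red nucleus and hindbrain nuclei, at −0.32 ± 0.20 and 0.02 ± 0.14, were not called.

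Slit2, a repellent of the midline in the developing brain, peaked in red nucleus nuclei at 789, 559 and 635 CPM. Cortical nuclei had 512, 441.4 and 527 CPM, hindbrain nuclei 446, 310.45 and 405 CPM, and hypothalamic nuclei 84.9, 85.2 and 145 CPM. All red nucleus libraries lay above all cortical ones, and all hypothalamic libraries lay below those of every other type. Slit2 was higher in red nucleus nuclei by 1.27 ± 0.09 (adjusted p = 3.46e-09, 4.79% of genes called higher). It was lower in hypothalamic nuclei by −2.22 ± 0.13 (adjusted p = 5.01e-10, 3.44% called lower). In cortical nuclei it differed by 0.72 ± 0.08 with an adjusted p of 6.81e-07, under the fold limit, and in hindbrain nuclei by 0.23 ± 0.09 with an adjusted p of 0.0732.

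Slit3, the third ligand, showed the largest fold change of the 6 genes against the other types. It reached 1544, 1439 and 1222 CPM in cortical nuclei, against 315, 300.1 and 230.2 CPM in red nucleus nuclei. It stood at 104, 242 and 109 CPM in hypothalamic and at 192, 184 and 111 CPM in hindbrain nuclei. The lowest cortical library thus lay above the highest of any other type, while the hypothalamic and hindbrain ranges overlapped. The cortical mean was 1401 ± 164 CPM (SD, n = 3), and Slit3 was higher than in the other types by 2.88 ± 0.10 (SE, adjusted p = 2.64e-14, 9.26% of genes called higher). It was lower in hindbrain nuclei by −1.31 ± 0.12 (adjusted p = 2.61e-07, 1.2% called lower) and in hypothalamic nuclei by −1.35 ± 0.16 (adjusted p = 5.09e-06). In red nucleus nuclei the difference of −0.22 ± 0.12 was not called (adjusted p = 0.243). Replicate 2 held the hypothalamic level up, at 242 CPM against 104 and 109 CPM in replicates 1 and 3.

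Robo1, a Slit receptor, had overlapping levels in 3 types. Cortical nuclei had 1417, 1261 and 1520.5 CPM, red nucleus nuclei 1520.0, 949.6 and 1296 CPM, and hindbrain nuclei 1273, 963 and 1151 CPM. Hypothalamic nuclei, at 609, 498 and 400.1 CPM, lay below all of them in every library. Robo1 was lower there by −1.32 ± 0.11 (adjusted p = 4.19e-08). The other 3 types differed by 0.66 (cortical, adjusted p = 2.51e-06), 0.42 (red nucleus, adjusted p = 0.00203) and 0.24 (hindbrain, adjusted p = 0.0754), all under the fold limit.

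Robo2, the other Slit receptor, ran in another order. It was highest in red nucleus nuclei, at 2096, 1512 and 1570.2 CPM, and hypothalamic nuclei followed with 1531, 1100.3 and 1507 CPM. Cortical nuclei had 1083, 898 and 1006 CPM and hindbrain nuclei 1108, 720.3 and 1022 CPM. No type was called, though the adjusted p was under 0.05 in 3 of them: red nucleus 0.66 ± 0.07 (adjusted p = 1.63e-06), cortical −0.39 ± 0.07 (adjusted p = 0.000245) and hindbrain −0.50 ± 0.08 (adjusted p = 8.87e-05). Hypothalamic nuclei differed by 0.23 ± 0.08 (adjusted p = 0.0537).

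Robo3 was low everywhere, with 2451 UMIs in all nuclei kept. It had 21.2, 24.4 and 25.8 CPM in cortical nuclei, 5.63, 5.63 and 12.9 CPM in red nucleus nuclei, and 4.61, 4.86 and 4.21 CPM in hindbrain nuclei. Hypothalamic nuclei held 0, 2 and 1 UMIs. The cortical libraries lay above all others, and Robo3 was higher there by 2.56 ± 0.21 (adjusted p = 4.30e-09). The 3 hypothalamic UMIs give a ratio to cortical nuclei of 0.0739, with an exact 95% counting interval of 0.0152 to 0.216. The ratio to hindbrain nuclei was 0.397 with an interval of 0.0810 to 1.18, so a difference from hindbrain nuclei was not detectable at this depth. The edgeR test called Robo3 lower in hypothalamic nuclei (−2.41 ± 0.63, adjusted p = 0.0119), but the adjusted p was 0.0776 without replicate 1, 0.0714 without replicate 3, 0.0840 with gates at 2 times the CPM and 0.213 with thinned nuclei.

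**Figure D2:**
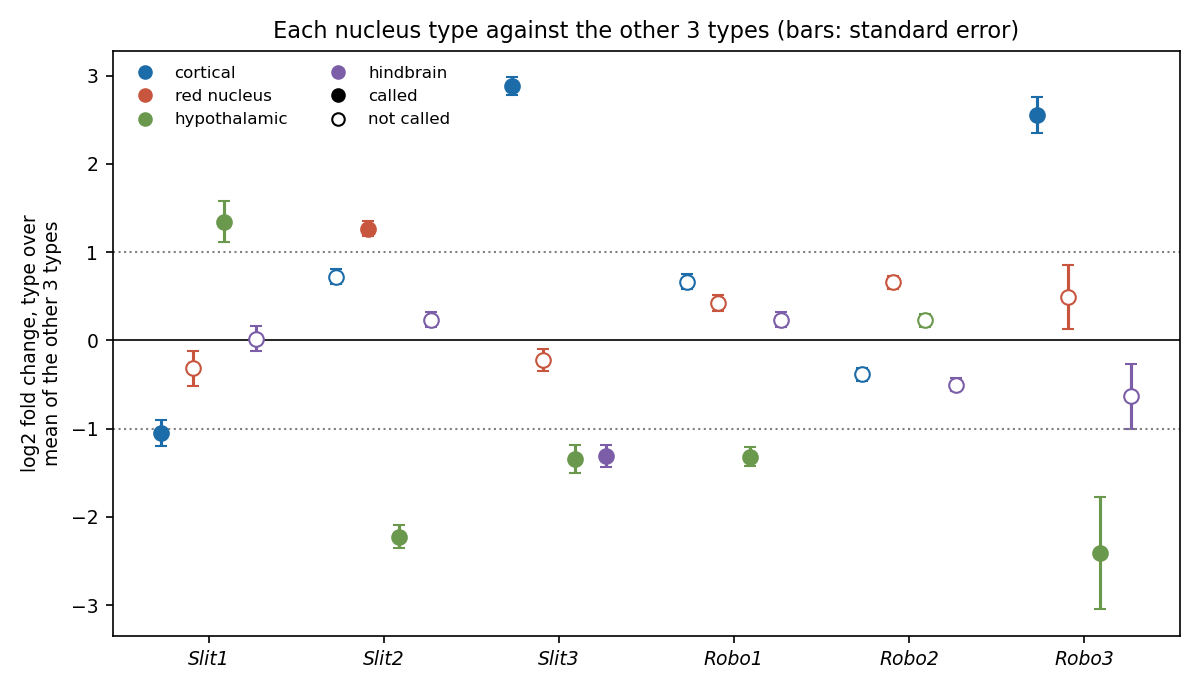
Log2 fold change of each type over the mean of the other 3 types (y axis) for the 6 members (x axis). Points are fitted values, bars standard errors, filled points called comparisons, and dotted lines mark the fold limit of 1 on the log2 scale. Slit3 and Robo3 in cortical nuclei lie above 2.5, and Slit2 and Robo3 in hypothalamic nuclei below −2.

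The scaling moved the zero point of these comparisons. The TMM factors were 0.781 to 0.804 for cortical sums and 0.957 to 1.20 for the others, and with library totals alone the median of all genes shifted by −0.45 in cortical, 0.04 in red nucleus, 0.31 in hypothalamic and 0.11 in hindbrain nuclei. The called genes, 1592 higher and 2245 lower in cortical nuclei, then became 900 and 4108, and the hypothalamic ones 1257 and 283 in place of 746 and 592. None of the 24 comparisons of members changed its call with that setting, which was chosen after seeing the data.

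Neighbours in the order of levels were compared in pairs within the same fit. For Slit1, hypothalamic nuclei exceeded hindbrain nuclei by 0.99 ± 0.24 (adjusted p = 0.0115), just under the fold limit, and 7 of 13 alternatives called it, at 1.03 to 1.19. The hindbrain and red nucleus levels did not differ beyond their spread (0.25 ± 0.21, adjusted p = 0.518). For Slit2, red nucleus exceeded cortical nuclei by 0.41 ± 0.10 (adjusted p = 0.00203) and hindbrain exceeded hypothalamic nuclei by 1.84 ± 0.14 (adjusted p = 4.69e-08, 2.09% of genes called in that direction). The cortical lead over hindbrain nuclei in Slit2, 0.36 ± 0.09, became −0.06 with library totals alone, and the ranges overlapped.

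For Slit3, cortical exceeded red nucleus nuclei by 2.33 ± 0.14 (adjusted p = 8.52e-11), with 8.43% of genes called higher in that pair. Red nucleus exceeded hindbrain nuclei by 0.82 ± 0.14 (adjusted p = 0.000525), under the fold limit. Hindbrain and hypothalamic nuclei stood side by side (0.03 ± 0.18, adjusted p = 0.964). For Robo1, cortical, red nucleus and hindbrain neighbours were not distinguished (adjusted p = 0.183 and 0.475), and hindbrain exceeded hypothalamic nuclei by 1.17 ± 0.12 (adjusted p = 2.07e-06, 0.99 without replicate 3). For Robo2, hypothalamic exceeded cortical nuclei by 0.46 ± 0.09 (adjusted p = 0.000728), and cortical and hindbrain nuclei were not distinguished (0.09 ± 0.09, adjusted p = 0.422). For Robo3, cortical exceeded red nucleus nuclei by 1.55 ± 0.24 (adjusted p = 3.66e-05). Red nucleus and hindbrain nuclei differed by 0.84 ± 0.30 with an adjusted p of 0.0815.

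The low levels of Slit3 and Robo3 outside cortical nuclei were set beside those of 4 cortical markers, as a percentage of the cortical level in the same library. Slit3 came to 9.12 to 12.8% in hindbrain nuclei. Bcl11b came to 7.66 to 13.9% and Crym to 10.2 to 15.8% there, against 12.7 to 23.1% for Fezf2 and 16.8 to 27.1% for Slc17a7. The Slit3 level in hindbrain nuclei thus lay within the range of the 4 markers. In hypothalamic nuclei Slit3 came to 6.76 to 16.8%, against 3.01 to 5.92% for Bcl11b, 4.81 to 12.7% for Crym, 8.79 to 17.6% for Fezf2 and 9.11 to 21.8% for Slc17a7. Slit3 there lay above the range of Bcl11b and overlapped those of the other 3. In red nucleus nuclei Slit3 came to 18.8 to 20.9%, against 6.12 to 15.3% for the 4 markers. Robo3 in hindbrain nuclei, at 16.3 to 21.8%, lay within the 7.66 to 27.1% of the markers. In red nucleus nuclei Robo3 came to 23.1 to 50.1%. How much of these levels is free RNA, or RNA of cortical nuclei that missed the Tox gate, was not tested.

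**Figure D3:**
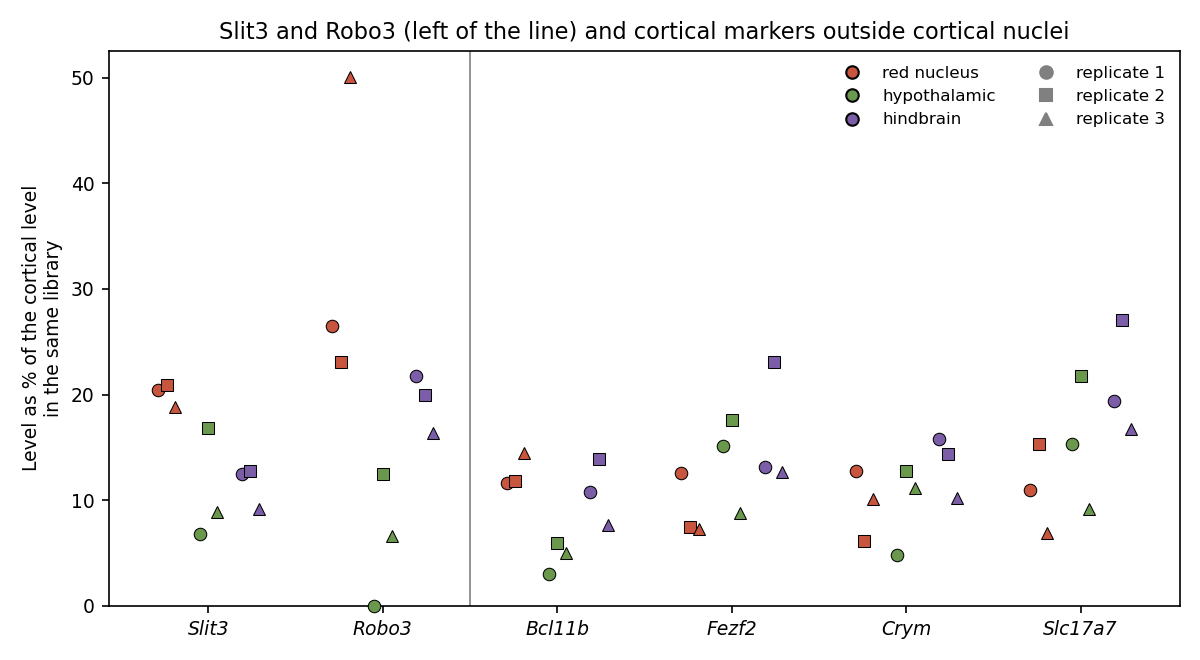
Level of Slit3, Robo3 and 4 cortical markers in red nucleus, hypothalamic and hindbrain nuclei, as a percentage of the cortical level in the same library (y axis). Points are libraries. Slit3 in hindbrain nuclei (9.12 to 12.8%) lies among the markers, and in red nucleus nuclei (18.8 to 20.9%) above their highest value.

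At equal depth, with each nucleus thinned to 5000 UMIs, Slit3 had a UMI in 95.03 to 96.4% of cortical nuclei over the 3 libraries. The share was 60.4 to 69.4% in red nucleus, 40.5 to 58.5% in hypothalamic and 31.2 to 42.1% in hindbrain nuclei. Unthinned, it was 95.9 to 98.0% of cortical and 43.0 to 70.4% of hindbrain nuclei. The cortical median was 5, 5 and 4 Slit3 UMIs of 5000, and the ratio of variance to mean was 2.21, 1.69 and 1.53. The hindbrain median was 0 in all 3 libraries, yet the ratio of variance to mean was 4.00, 2.77 and 2.60. A minority of hindbrain nuclei held 4 or more Slit3 UMIs, 47 of 698, 53 of 732 and 43 of 1040. Slit3 was thus spread over nearly all cortical nuclei and unevenly over nuclei typed as hindbrain. Meis2, a gene of the hindbrain gate, stood at 256, 241 and 247 CPM in cortical nuclei. Cortical nuclei that missed the Tox gate could therefore be typed as hindbrain, and their part in this spread was not tested.

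**Figure D4:**
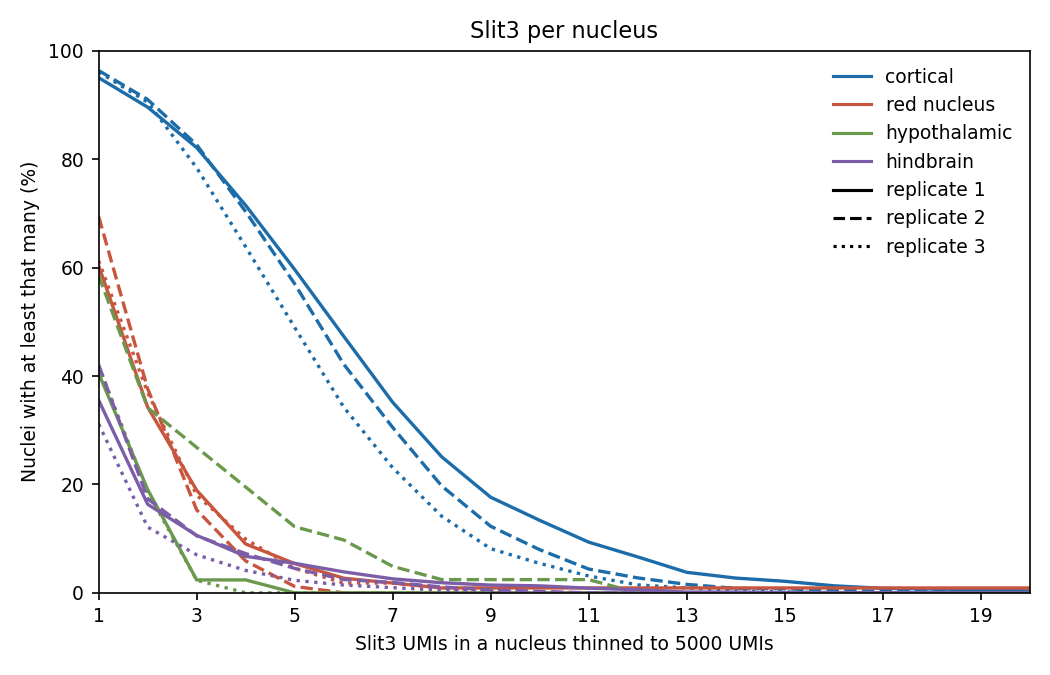
Percentage of nuclei (y axis) with at least the given number of Slit3 UMIs among 5000 drawn UMIs (x axis), with a line for each type and library. The 3 cortical lines start between 95.03 and 96.4% at 1 UMI, and the hindbrain lines between 31.2 and 42.1%.

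Slit2 had a UMI in 87.1 to 93.7% of thinned red nucleus nuclei, 73.9 to 80.5% of cortical, 62.4 to 69.6% of hindbrain and 24.4 to 30.2% of hypothalamic nuclei. Both Slit2 and Slit3 were seen in 71.2 to 77.7% of cortical and 56.8 to 62.4% of red nucleus nuclei. In hindbrain nuclei the share with both was 23.7 to 27.7%, and in hypothalamic nuclei 9.52 to 11.6%. The receptors Robo1 and Robo2 were seen together in 88.4 to 92.9% of cortical, 87.4 to 94.6% of red nucleus and 82.0 to 89.0% of hindbrain nuclei, and in 62.8 to 76.2% of hypothalamic nuclei. The share with both was thus lower in each hypothalamic library than in any library of the other types, and the part of free RNA in these shares was not tested. Slit1 was seen in 19.5 to 26.2% of hypothalamic and 4.41 to 6.70% of cortical nuclei, and Robo3 in 6.75 to 8.93% of cortical and 1.37 to 2.29% of hindbrain nuclei.

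The hypothalamic type joins nuclei of different kinds, and the members were not even across it. Its Sim1 gate took 33, 22 and 37 nuclei alone, with Oxt at 504, 228 and 779 CPM. Its gate of Ros1 and Rfx2 took 19, 22 and 15 nuclei alone, with Hcrt at 2506, 1791 and 2164 CPM. These levels are CPM of all UMIs with no scaling factor, and the difference between the gates was not tested. Slit1 had 117, 84.1 and 98.9 CPM in nuclei of the Sim1 gate, against 6.46, 0 and 0 CPM in nuclei of the Ros1 and Rfx2 gate, or 82 UMIs against 1 UMI.

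Robo2 had 2630.1, 2123 and 2384 CPM under the Sim1 gate, against 581, 435 and 446 CPM under the Ros1 and Rfx2 gate. Slit2 had 92.9, 133 and 192 CPM against 32.3, 66.9 and 130.5 CPM. The Slit1 and Robo2 values of the hypothalamic type thus came mainly from the Sim1 nuclei, and Slit2 was higher under the Sim1 gate in each library, with overlapping ranges. Slit3, at 73.3, 217 and 119 CPM against 168, 360.4 and 158 CPM, was higher under the Ros1 and Rfx2 gate in each library, also with overlapping ranges. Robo1 had 636, 532 and 503 CPM against 743, 650.1 and 426 CPM, with overlapping ranges. Robo3 held 1 UMI against 2 UMIs.

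**Figure D5:**
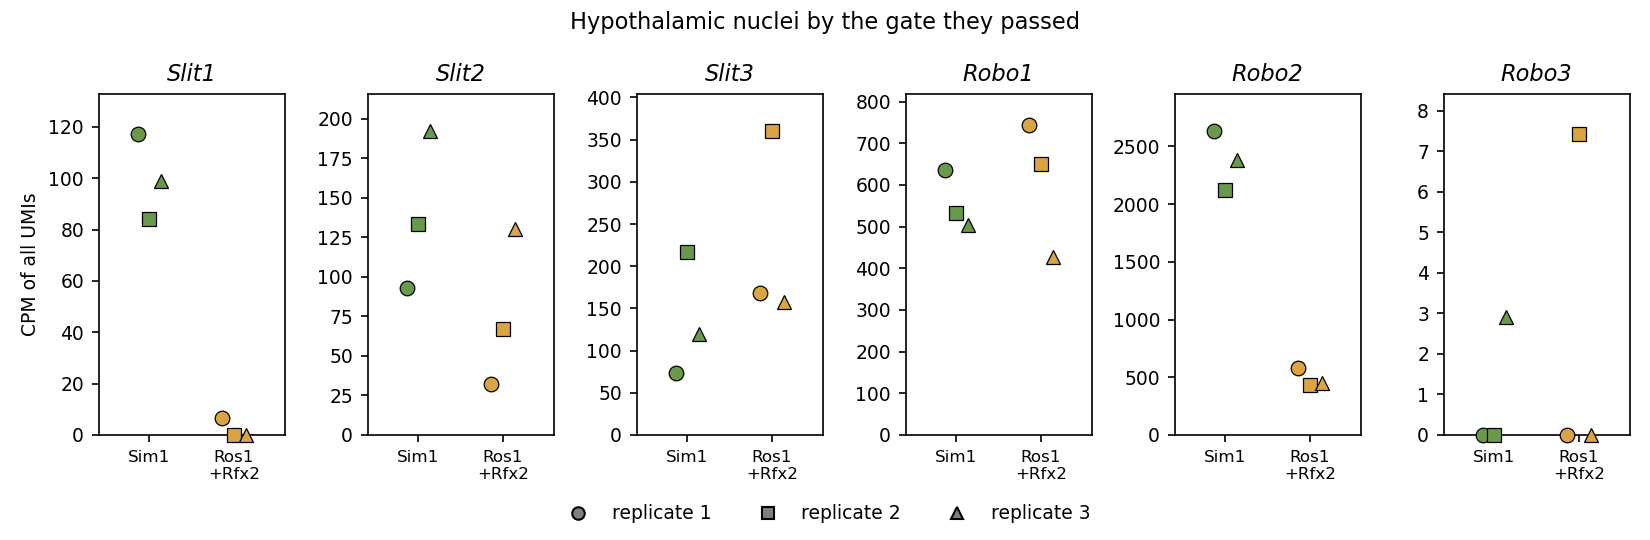
Levels of the 6 members as CPM of all UMIs (y axis, a scale of its own per gene) in hypothalamic nuclei that passed the Sim1 gate alone or the Ros1 and Rfx2 gate alone. Points are the 3 libraries; Slit1 lies between 84.1 and 117 CPM under Sim1 and at or below 6.46 CPM under Ros1 and Rfx2.

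Some hindbrain nuclei were divided by the UMIs of Gad1, Gad2, Slc32a1 and Slc6a5, the genes of inhibitory transmission, and of Slc17a6. A group needed at least 2 UMIs of its own genes and at least 2 times the UMIs of the other. There were 25, 11 and 40 inhibitory nuclei against 170, 300 and 406 excitatory nuclei, of 913, 763 and 1106 hindbrain nuclei. The rest entered neither group. The groups were not tested, since a test was set to need at least 20 nuclei of each group in every library. Slit2 had 255, 194 and 374 CPM of all UMIs in inhibitory nuclei, against 522, 357 and 431 CPM in excitatory nuclei. Robo1 had 948, 997 and 969 CPM against 1400.0, 1171 and 1352 CPM, and Slit1 55.8, 41.9 and 32.2 CPM against 29.1, 25.0 and 27.4 CPM. Robo2 had 1159, 1191 and 1240 CPM against 1162, 858 and 1127 CPM. Slit3 had 51.8, 213 and 67.7 CPM against 101, 123 and 73.3 CPM, with no single direction. In each library the inhibitory nuclei were lower in Slit2 and Robo1 and higher in Slit1. The inhibitory Slit1 levels rest on only 14, 11 and 19 UMIs.

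Slit3 was then followed within the cortical type. In cortical nuclei of at least 10000 UMIs, 5000 UMIs were drawn to set the group (2 or more Slit3 UMIs against 0), and the remaining UMIs were compared. There were 543, 1161 and 1437 nuclei with 2 or more, against 20, 30 and 48 with none, of 582, 1245 and 1579. The number at the limit was 36, 101 and 170 nuclei with 2 Slit3 UMIs, and 19, 54 and 94 just outside it with 1. In the UMIs not drawn, Slit3 stood at 1307, 1196 and 1004 CPM in nuclei with Slit3, against 556, 587 and 441.4 CPM in those without. Slit3 therefore remained present in the group that the draw put at 0. Nuclei with Slit3 were deeper, with medians of 16998, 30812 and 21451 UMIs, against 12274, 18627 and 17610.5 UMIs in those without. The share that also passed the hindbrain gate was higher without Slit3 in replicates 1 and 3 and lower in replicate 2. What part these differences have in the calls below was not tested.

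Nuclei with Slit3 had 288 genes called higher and 700 called lower than nuclei without, or 2.01% and 4.89% of 14329 genes. These counts were 177 and 442 without replicate 1, 443 lower without replicate 3, 20 and 194 without nuclei of more than 1 gate, and 585 higher without nuclei of high UMIs. The groups without Slit3 were then small, with 5, 15 and 28 nuclei of 1 gate, and with 14, 27 and 41 nuclei when those of high UMIs were left out. For the groups of 2 or more against 0, TMM factors were 0.859, 0.925 and 0.886 with Slit3 and 1.16, 1.07 and 1.14 without. Library totals alone were not run for these groups, so the part of the scaling in the calls and fold changes was not tested. The genes higher with Slit3 included Nfix, a nuclear factor I transcription factor, at 109, 123 and 107 CPM against 17.96, 58.9 and 21.6 CPM (1.74 ± 0.24, adjusted p = 4.12e-07). Rtn4rl1, a Nogo receptor homologue, had 66.9, 50.2 and 44.3 CPM against 4.49, 22.5 and 13.5 CPM (1.71 ± 0.30, adjusted p = 3.36e-05). Cckbr, a cholecystokinin receptor, and Kcnh3, a potassium channel, were higher by 1.79 and 1.96. The other named genes were Cwh43, Zbtb18, St6galnac3, Gm37184, A830031A19Rik and Tmem64, which were higher by 1.69 to 2.03.

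Among the genes lower with Slit3, Zfhx4, a zinc finger homeobox factor, had 0.896, 2.92 and 2.64 CPM in nuclei with Slit3, against 121, 86.7 and 109.6 CPM in those without (−5.45 ± 0.30, adjusted p = 3.10e-19). Tshz2, a teashirt factor, had 2.69, 6.23 and 4.21 CPM against 179.6, 263 and 55.5 CPM (−4.98 ± 0.26). Pde3a, Gm45321, Gm15398, Rmst, Egfem1, Sncaip and Insyn2b changed by −5.02 to −4.73. Markers of other neurons moved with the groups. Slc17a6, the vesicular glutamate transporter of subcortical neurons, had 3.45, 5.49 and 5.29 CPM in nuclei with Slit3, against 72.8, 51.7 and 26.0 CPM in those without. The 3 noradrenergic markers summed to 0, 1.39 and 0.766 CPM against 0, 22.2 and 141 CPM, and Bcl11b was at 197, 232 and 219 CPM against 46.8, 162 and 105 CPM. The part of these RNAs in the calls was not tested.

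None of the other 5 members was called between these groups, but without nuclei of high UMIs Robo3 was called higher with Slit3 (1.24, adjusted p = 0.0225 by edgeR's quasi-likelihood test). Slit1 differed by −0.37 ± 0.39, Slit2 by 0.10 ± 0.17, Robo1 by 0.10 ± 0.17, Robo2 by 0.22 ± 0.16 and Robo3 by 0.17 ± 0.33, with adjusted p between 0.455 and 0.819. Of 29 pathway genes tested, Nell2 was called higher with Slit3 (1.09 ± 0.18) and Dcc and Srgap1 lower, where 2.01% of all genes were called higher and 4.89% lower, beside a list median of 0.22 and an all-gene median of 0.02.

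Other groupings, added after seeing the data, gave fewer calls. With 8 or more Slit3 UMIs of 5000 against 2 or fewer, 14 genes were called higher and 569 lower, or 0.101% and 4.11% of 13845 genes. Under the added limits that Bcl11b and Slc17a7 sum to at least 100 CPM and Slc17a6 lies under 50 CPM, 6 were called higher and 114 lower, or 0.0449% and 0.853% of 13359 genes, in 161, 274 and 222 nuclei against 41, 148 and 245. No pathway gene was called higher under either of these groupings, so the call of Nell2 was lost. Slc17a6 then stood at 0.841, 3.04 and 1.92 CPM with high Slit3, against 1.48, 4.94 and 3.598 CPM with low Slit3. The limit on Slc17a6 kept it low in both groups by selection, and it was lower with high Slit3 in each library.

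Of the genes still called lower under those limits, Dcc, the netrin receptor, had 8.33, 20.9 and 9.43 CPM with high Slit3, against 66.6, 47.0 and 69.8 CPM with low Slit3 (−1.97 ± 0.22, adjusted p = 9.56e-06). Htr2c, a serotonin receptor, had 19.7, 13.6 and 12.7 CPM against 83.7, 26.2 and 67.1 CPM (−1.74 ± 0.19). Gm32647, Prkg1, Btk, Npas3, Klhl1, Mpp7, Scn9a and Tmco4 were lower by −2.48 to −1.05. Robo3 ran the other way from Slit3 with 8 or more against 2 or fewer, at 12.1, 12.4 and 15.3 CPM against 19.0, 24.1 and 19.9 CPM (−0.69 ± 0.18, adjusted p = 0.0128), under the fold limit. Under the stricter limits Robo3 differed by −0.34 ± 0.17 with an adjusted p of 0.236.

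The wider pathway list held 31 genes, of which 30 were tested and Robo4, the vascular Robo, was not, at 0 to 13 UMIs per type. In cortical nuclei 7 genes were called higher and 4 lower, beside 9.26% and 13.1% of all genes, with a median log2 fold change of 0.39 beside −0.03 for all genes. Nell2, the secreted ligand of Robo3, had 767, 717 and 684 CPM in cortical nuclei, against 325, 275 and 281 CPM in hypothalamic, 191, 174 and 163 CPM in hindbrain and 94.8, 78.4 and 85.9 CPM in red nucleus nuclei (2.14 ± 0.05, adjusted p = 6.61e-16). Ext1, an enzyme that builds heparan sulphate, the sugar chain that Slit and Robo both bind, was higher by 1.87 ± 0.06. Nck2, an adaptor whose Drosophila counterpart binds Robo, was higher by 1.43 ± 0.09, and Hs2st1, Ndst1, Cap1 and Pak1 were also called higher. Nell2 and Robo3 were both highest in cortical nuclei.

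Other pathway genes were far lower in cortical nuclei. Srgap1, a GTPase-activating protein that binds Robo1, had 10.8, 8.80 and 9.69 CPM in cortical nuclei, against 403, 250 and 267 CPM in hypothalamic, 219, 204 and 159 CPM in red nucleus and 90.7, 74.1 and 98.0 CPM in hindbrain nuclei (−4.14 ± 0.12, adjusted p = 2.57e-15). Dcc, the attractive netrin receptor that Robo1 is known to silence in Xenopus neurons, had 139, 85.1 and 101 CPM in cortical nuclei, against 2548, 1618 and 2337 CPM in hindbrain and 2014, 1244 and 1803 CPM in red nucleus nuclei (−3.81 ± 0.12, adjusted p = 1.11e-14). Eva1c, whose counterpart in Caenorhabditis elegans is a Slit coreceptor, was lower by −3.42 ± 0.37, and Prrg4 was also called lower. In red nucleus nuclei Srgap1 (1.61), Dcc (1.48), Eva1c (1.30) and Prrg4 were called higher and Ext1 (−1.11) and Nell2 (−1.95) lower, beside 4.79% and 2.26% of all genes, with a list median of −0.05 beside 0.03. Srgap1 was the only one of the 30 called in hypothalamic nuclei (2.45 higher, beside 4.34% of all genes, list median −0.24 beside −0.05), and Dcc the only one in hindbrain nuclei (1.96 higher, beside 3.48% of all genes, list median −0.13 beside 0.04).

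The genes whose pattern over the 12 sums was most like that of a member were taken among 7043 genes by Pearson r of log2(CPM + 1), as a description. They share libraries and depth with the member. Grin2a (r = 0.974), an NMDA receptor subunit, Rapgef2 (0.973) and Cnih3 (0.970) were most like Slit3. Fign, Mocs2 and Dnah9 (0.966 to 0.962) were most like Slit1, and St8sia1, Tbc1d24 and Siah3 (0.967 to 0.961) most like Slit2. Gm15680, Oxr1 and Tenm2 (0.932 to 0.928) were most like Robo1, Pde7b, Pde3a and Mcf2 (0.956 to 0.945) most like Robo2, and Morc2b, Gm3294 and Pip4k2a (0.969 to 0.951) most like Robo3.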

How the data were processed

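Nuclei of brain neurons labelled from the lumbar cord were measured in 3 libraries. The authors deposited UMI counts for each gene in each barcode, made with Cell Ranger, version 6.1.1 per the file headers and version 7.0.1 with build mm10 per the submitters' processing notes. Whether introns or strand were used in counting is not given in the sources used here; counts over exons alone would measure long, unspliced transcripts lower. All columns were mapped to a sample.

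Nuclei were typed in order by CPM with at least 2 UMIs per gate: cortical (Tox at 300 or more), red nucleus (Ttc6, Chst9 and Rreb1 summing to 150 or more), hypothalamic (Sim1, or Ros1 and Rfx2 summed, at 150 or more) and hindbrain (Meis1 and Meis2 summing to 200 or more). No doublet caller was run; an added alternative left out nuclei with more than 2 times the median UMIs of their type and library. The UMIs were summed per library and type, which gave 12 sums of 367083 (hypothalamic, replicate 1) to 45768766 UMIs (cortical, replicate 2), and fitted with edgeR 4.0.16 (R 4.3.3) by its quasi-likelihood test with TMM scaling, filterByExpr and the library as a block. The block comes from the design, since the types of a library share its nuclei preparation. There were 6 residual degrees of freedom for the types and 2 for the Slit3 groups. Standard errors are approximate, each fold change on the log2 scale over the root of its F value. Member levels are on the TMM scale of the test, not the plain CPM first planned. Thinning, at 5000 UMIs per nucleus, left out shallower nuclei (3958 of 4126 cortical, 307 of 332 red nucleus, 126 of 149 hypothalamic and 2470 of 2782 hindbrain nuclei stayed). Intervals are at 95% and cover counting error only. The fits of the types and of the Slit3 groups of 8 or more against 2 or fewer UMIs were tested on simulated data. DESeq2 1.42.0 was an alternative.

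The members, gene lists and tests were chosen with earlier results of these data known. Named genes are the members, the called pathway genes with the 3 largest and 3 smallest fold changes per type, the 3 genes most like each member among those with a mean of at least 20 CPM over the types, and, between the Slit3 groups, the 10 largest and 10 smallest called changes at 20 CPM or more in the higher group, with the same direction in 3 of 3 libraries. Gate genes and members were left out of these rankings. Some listed markers and genes that the rule names are not reported here.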

Additional observations from a re-analysis of the deposited data

How the results depend on the processing

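For the 24 comparisons of a member with the other types, 13 alternatives gave 301 values with sign and call unchanged. Another 7 kept the sign but lost the call, and 4 turned sign. The cause of the changes was not tested. Slit1 in hindbrain nuclei, at 0.02, turned to −0.026 with RLE factors, −0.029 with DESeq2 and −0.075 with gates at 2 times the CPM. Robo3 in red nucleus nuclei (0.49) ran from −0.064 without replicate 3 to 1.05 without replicate 2. Slit1 in cortical nuclei (−1.05) fell under the fold limit with no filter on low counts (−0.99), and leaving out a library gave −1.40 to −0.88. Robo3 in hypothalamic nuclei (−2.41, 3 UMIs) was not called with gates at 2 times the CPM (−2.34), with thinned nuclei (−1.70), or without replicate 1 or 3, where leaving out a library gave −3.31 to −2.08.

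Among pairs, Slit3 in hypothalamic against hindbrain nuclei (−0.03) turned to 0.056 with RLE, 0.24 thinned, 0.32 without nuclei of high UMIs and 0.12 with library totals alone, and ran from −0.43 without replicate 2 to 0.27 without replicate 1. Robo2 in cortical against hindbrain nuclei (0.09) turned to −0.33 with totals alone and ran from −0.033 without replicate 2 to 0.19 without replicate 1, and Robo1 in red nucleus against hindbrain nuclei to −0.0033 with the higher gates. Totals alone also turned Robo1 in cortical against red nucleus (−0.19) and hindbrain nuclei (−0.10), and Slit2 in cortical against hindbrain nuclei (−0.056).

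Between the Slit3 groups, Robo1 turned to −0.018 without nuclei of high UMIs and ran from −0.051 to 0.22 as libraries were left out. Slit2 turned to −0.20 without nuclei of more than 1 gate and −0.16 without those of high UMIs, and ran from −0.097 to 0.32. Robo3 was −0.043 and 1.24 (adjusted p = 0.0225, called) under these settings, and ran from −0.021 to 0.69. With 8 or more against 2 or fewer, Robo3 was −0.69 and Slit1 0.097, and under the stricter gate −0.34 and 0.60. Slit1 was 0.028 with 2500 drawn UMIs.

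Counts of called genes moved over 1.5 times as follows. With no replicate block, genes lower in hindbrain nuclei were 125 (207 with it), red nucleus against hindbrain 215 higher and 204 lower (381 and 320), and genes higher with Slit3 182. The block changed no call of a member against the other types. Leaving out a library gave 90 (without replicate 3) to 200 lower in hindbrain nuclei, 241 (without replicate 3) to 338 higher in red nucleus against hindbrain, and 177 to 397 higher and 442 to 790 lower with Slit3. Thinning gave 1460 lower in cortical, 504 higher and 255 lower in red nucleus, and 496 higher in hypothalamic nuclei, with 1340 lower in cortical against red nucleus and 336 lower in red nucleus against hypothalamic. Totals alone gave 900 and 4108 in cortical and 1257 and 283 in hypothalamic nuclei, and in pairs 876 and 3637 (cortical against red nucleus), 813 and 3846 (hypothalamic) and 856 and 4018 (hindbrain). Genes higher with Slit3 were 169 with DESeq2, 17 with 2500 UMIs drawn, 14 with 8 against 2, 6 with the stricter gate (114 lower), 20 with nuclei of 1 gate (194 lower) and 585 without nuclei of high UMIs.

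Shares of nuclei with a UMI rest on depth: 42 of 48 comparisons with thinning to 2500 or 10000 UMIs moved. Of 48 levels, 2 moved, both of Robo3. Hypothalamic sums, from 44 to 53 nuclei a library, have the least depth. The inhibitory and excitatory hindbrain groups had no test, so their alternatives were not run.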

Other observations

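Untyped nuclei, which entered no comparison, held the members too. Thinned to 5000 UMIs, Slit3 had a UMI in 58.5 to 65.9% of them, between the shares of cortical and hindbrain nuclei, and Robo3 in 7.64 to 9.32%, against 6.75 to 8.93% of cortical nuclei.

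A single untyped nucleus in replicate 1 carried 620 Robo1 UMIs of 9786, or 6.34% of its RNA, with 2887 genes detected. The next untyped nucleus of that library stood at 8185 CPM of Robo1. The highest typed nucleus of any library, a hindbrain nucleus in replicate 3, stood at 8747 CPM. What gave that nucleus its count was not tested.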
